A study of Mus musculus with 15 samples.

Results

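10 transcripts of T cells and cytotoxic lymphocytes were followed in the mouse ileum, the stretch of small intestine before the colon, after tamoxifen was given to animals that carry an inducible deletion of Rfx6. The 10 genes are Cd3e, Cd3g, Cd8a, Cd4, Gzma, Gzmb, Prf1, Nkg7, Klrd1 and Itgae. They were taken as a list of symbols, and each symbol matched 1 of the 37620 Ensembl identifiers in the count tables. All 10 had counts in all 15 libraries, with a lowest count of 17, and all 10 passed the filter on low counts in every comparison. The 8-day cohort held 3 control animals of genotype Rfx6f/f and 4 animals labelled mutant, of genotype Rfx6f/f; Vilin-CreERT2. The 3-month cohort held 4 controls, of which replicates 1 and 4 were Rfx6f/f and replicates 2 and 3 were Rfx6f/+, and 4 animals labelled mutant of the same genotype as at 8 days. Every animal, controls included, was an adult with at least 1 loxP-flanked Rfx6 allele and was given 10 mg of tamoxifen by gavage 2 times per day on alternate days over 5 days. The controls lacked the recombinase, which is driven by the Villin promoter, active in the intestinal epithelium. Each library came from total RNA of whole ileum depleted of ribosomal RNA, so that fewer lymphocytes and less RNA per lymphocyte cannot be told apart.

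T cells recognise antigen through a receptor whose signalling part is the CD3 complex, and the coreceptors CD4 and CD8 divide them into helper-type and cytotoxic-type cells. Cytotoxic T cells and natural killer cells kill by releasing granules that hold perforin, which opens pores, and granzymes, which are proteases that trigger death of the target cell. The epithelium of the small intestine holds a large resident population of such cells, the intraepithelial lymphocytes. Most of these carry CD8 and the integrin CD103, which binds E-cadherin on epithelial cells.

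The targeted gene was checked first. Rfx6, which encodes a transcription factor of hormone-producing cells of the gut, stood at 1.5 ± 0.133 counts per 1000000 (CPM; SD, n = 3) in the 8-day controls and at 1.71 ± 0.272 CPM (SD, n = 4) in the 8-day libraries labelled mutant. At 3 months it stood at 1.59 ± 0.133 (SD, n = 4) and 2.62 ± 0.526 CPM (SD, n = 4), and rose by 0.72 in log2 (SE 0.17, edgeR adjusted p = 0.0347). This call held in 10 of 17 alternatives and was lost without any 1 of the 4 controls, without mutant replicate 1 or 3, and with the Rfx6f/f controls only (0.67, adjusted p = 0.239). The total count of the gene was thus not lower under the mutant label, and the deleted exons were not read separately from the rest of the gene, so the groups are called by their labels throughout. Library totals ran from 26078462 to 54468586 counts, and 3 counts, a floor that covers counting error only, stood at 0.0551 to 0.115 CPM. Within groups, none of the 21 pairs of libraries agreed within sampling noise (lowest chi-square per degree of freedom 11.3), and each library counted as 1 replicate. The ileal genes Fabp6, Slc51a, Slc51b and Slc10a2 summed to between 1259 and 3863 CPM in every library, and the lower end of that range lay in the 3-month libraries labelled mutant, in which Fabp6 (log2 fold change -1.44, SE 0.20, edgeR adjusted p = 0.00873) and Slc51b (-0.70, SE 0.09, adjusted p = 0.00613) had fallen. With the Rfx6f/f controls only, 0 of these 4 genes were called.

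Which of the 10 genes differed 3 months after tamoxifen was asked within that cohort alone. Cd3g, Cd8a, Nkg7 and Itgae fell in the libraries labelled mutant, by 2.37-fold, 2.56-fold, 2.77-fold and 1.85-fold. None of the 10 rose, and all 10 had a negative fold change, as did 48.8% of all genes tested. The median log2 fold change of the 10 was -1.26, beside 0.01 for all genes tested. Calls rest on the edgeR quasi-likelihood test over 17085 genes, with a Benjamini-Hochberg threshold of 0.05, which passed 4.32% of all genes lower and 9.28% in either direction. At an unadjusted p under 0.05, 9 of the 10 passed, all but Cd4, beside 14.8% of all genes that passed in the lower direction. For 8 of the 10, all but Cd3e and Cd4, the highest library labelled mutant lay below the lowest control, which held for 9.53% of all genes.

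These calls were close to the threshold and depended on single libraries. DESeq2 called 8 of the 10 lower (8.85% of all genes), limma-voom 7 (4.58%) and a joint fit of both cohorts 8 (6.25%). Leaving out the library of mutant replicate 2 gave 8 called genes (4.14% of all genes called lower), and leaving out any 1 of the other 7 libraries gave 0 or 1. With the Rfx6f/f controls as the only controls, 0 of the 10 were called by edgeR, which then called 36 of all genes (0.205%), and all 10 fold changes stayed negative. Under that setting the log2 fold changes of the 4 called genes were -1.17 for Cd3g, -1.20 for Cd8a, -1.44 for Nkg7 and -0.73 for Itgae.

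**Figure D1:**
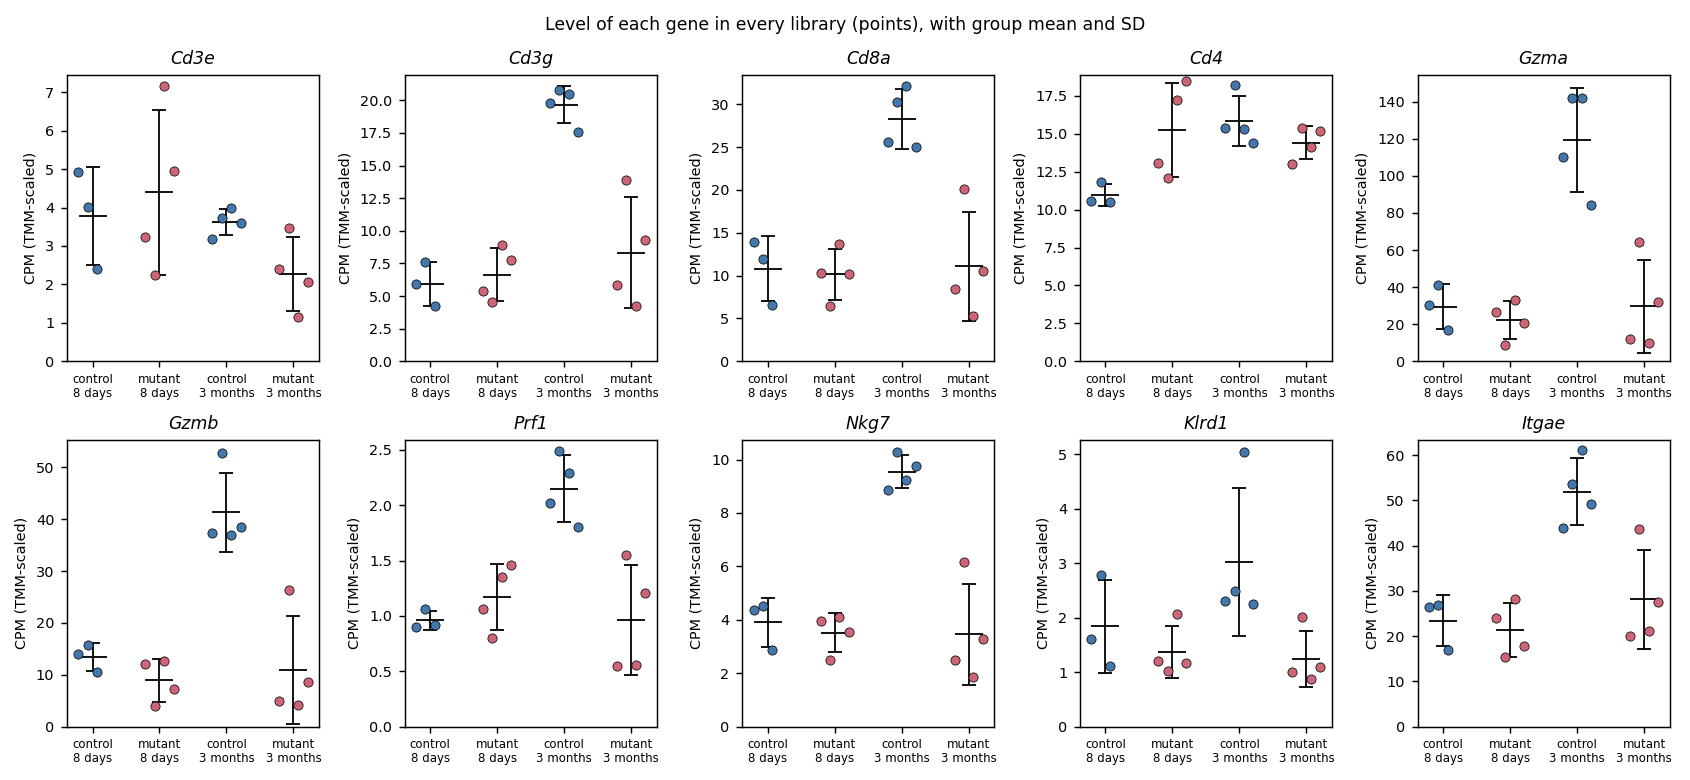
Level of each of the 10 genes in CPM (vertical axis, from 0, a separate scale for each gene) in every library, by group on the horizontal axis; points are libraries, the long bar is the group mean and the whiskers are 1 SD. At 3 months the red points (labelled mutant) lie below all blue points (control) for 8 genes, while for Cd3e and Cd4 they overlap.

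The CD3 chains come first. Cd3e and Cd3g encode the epsilon and gamma chains, which carry the receptor's signal into the cell and are made by all T cells. Cd3g (ENSMUSG00000002033) stood at 19.8, 20.8, 20.5 and 17.6 CPM in the 3-month controls and at 5.88, 13.9, 4.26 and 9.26 CPM in the libraries labelled mutant. The controls lay within a narrow band and every library labelled mutant lay below it, with replicate 2 the highest of them. The log2 fold change was -1.24 (SE 0.31, edgeR adjusted p = 0.0416). Cd3e (ENSMUSG00000032093) stood at 3.17, 3.72, 4 and 3.59 CPM in the controls and at 2.41, 3.47, 1.15 and 2.06 CPM under the mutant label. Here replicate 2 of the mutant label fell inside the control range, and the log2 fold change of -0.68 (SE 0.28, edgeR adjusted p = 0.151) did not pass. In the mouse annotation used for gene models, Cd3e shares 135 exon bases (3.31% of its exons) with an antisense gene that has no row in the count tables, and the strand handling of the counts is not given in the sources used here. Of the other 9 genes none shares exon bases with another gene. Among further genes that are named as called, the exons shared with a gene on the same strand were 25.95% for Ifng, 57.2% for Mzb1, 68.67% for Itgam and 2.71% for Lat, each with a gene that has no row in the tables. Those shared with a gene on the opposite strand that has a row were 15.12% for Csf1r and 12.83% for Slc51b. Counts of these genes are uncertain to that extent.

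The coreceptors differed from each other. Cd8a (ENSMUSG00000053977) encodes the alpha chain of CD8, which marks cytotoxic T cells and most intraepithelial lymphocytes. Its levels were 25.6, 30.3, 32.1 and 25 CPM in the 3-month controls and under the mutant label 8.41, 20.1, 5.3 and 10.5 CPM. The groups did not overlap, and Cd8a fell with a log2 fold change of -1.35 (SE 0.34, edgeR adjusted p = 0.0426). Cd4 (ENSMUSG00000023274) encodes the coreceptor of helper and regulatory T cells and, in the mouse, is also made by some dendritic and innate lymphoid cells. Its levels were 15.4, 18.2, 15.3 and 14.4 CPM in the controls and 13, 15.4, 14.1 and 15.2 CPM under the mutant label. These ranges overlapped for most libraries, and the log2 fold change was -0.13 (SE 0.10, edgeR adjusted p = 0.386). The ratio of Cd8a to Cd4 CPM was 1.67, 1.66, 2.1 and 1.73 in the controls and 0.649, 1.3, 0.375 and 0.687 under the mutant label, without overlap. This ratio was set up after the values were seen and is given as a description.

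Gzma and Gzmb were the most abundant members per kilobase of exon in the 3-month controls, at 119 ± 27.7 and 28.8 ± 5.28 CPM per kilobase (SD, n = 4). Gzma (ENSMUSG00000023132) encodes granzyme A, a granule protease of cytotoxic cells. It stood at 110, 142, 142 and 84.2 CPM in the controls and at 12.2, 64.3, 9.84 and 31.8 CPM under the mutant label. No library labelled mutant reached the lowest control, and the 4 spread over a wider relative range (coefficient of variation 85.4%) than the controls (23.4%). The log2 fold change of -2.02 (SE 0.54, a 4.06-fold difference) had an edgeR adjusted p of 0.0507 and so missed the threshold. Without mutant replicate 2 it was -2.74, with an adjusted p of 0.00999 (range over the 17 alternatives 0.00999 to 0.272).

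Gzmb (ENSMUSG00000015437), the gene of granzyme B, which cleaves caspases in the target cell, ranked the 4 libraries labelled mutant in the same order. Its CPM was 37.3, 52.7, 36.9 and 38.5 in the controls and 4.88, 26.3, 4.13 and 8.61 under the mutant label. The log2 fold change was -1.92 (SE 0.53, edgeR adjusted p = 0.0546). Without mutant replicate 2 it was -2.82, with an adjusted p of 0.00144 (range over the 17 alternatives 0.00144 to 0.255). The neighbouring granzyme gene Gzmc, a close relative of Gzmb, had 0 to 4 counts in every library. Prf1 (ENSMUSG00000037202), the perforin gene, had the lowest mean level per kilobase in the 3-month controls, within the spread of Cd3e. It stood at 2.02, 2.49, 2.29 and 1.8 CPM in the controls and at 0.546, 1.55, 0.56 and 1.21 CPM under the mutant label (log2 fold change -1.16, SE 0.33, edgeR adjusted p = 0.059). The lowest of these rested on 17 counts.

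Nkg7 (ENSMUSG00000004612) encodes a granule membrane protein of cytotoxic T and natural killer cells that takes part in granule release. It stood at 8.87, 10.3, 9.24 and 9.75 CPM in the 3-month controls and at 2.51, 6.17, 1.84 and 3.28 CPM in the libraries labelled mutant. The controls differed little among themselves (coefficient of variation 6.33%), and all 4 libraries labelled mutant lay below them. Nkg7 had the smallest adjusted p of the 10 genes (log2 fold change -1.47, SE 0.32, edgeR adjusted p = 0.0286). It was called in 11 of 17 alternatives, beside 9 for Cd3g, 9 for Cd8a and 8 for Itgae.

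The stretch of 250 bases before the start of transcription is shown for the granzyme genes and Nkg7. They were picked for a core of the motif bound by RUNX factors. Gzmb and Nkg7 also hold one of the motif bound by T-box factors. These families include Runx3 and Tbx21 (T-bet) of cytotoxic lymphocytes. The sequences are from RefSeq on GRCm38.p6. Of the 10 genes, 7 were matched in the promoter table used here. Each sequence is written 5′ to 3′ along the gene's strand with matches in capitals.
Gzma (chr13:113100982-113101231, minus strand): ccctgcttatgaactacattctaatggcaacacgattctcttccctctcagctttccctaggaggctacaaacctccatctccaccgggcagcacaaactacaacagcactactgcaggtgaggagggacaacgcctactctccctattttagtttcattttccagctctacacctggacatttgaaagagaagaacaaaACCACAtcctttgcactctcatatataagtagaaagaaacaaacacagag
Gzmb (chr14:56262335-56262584, minus strand): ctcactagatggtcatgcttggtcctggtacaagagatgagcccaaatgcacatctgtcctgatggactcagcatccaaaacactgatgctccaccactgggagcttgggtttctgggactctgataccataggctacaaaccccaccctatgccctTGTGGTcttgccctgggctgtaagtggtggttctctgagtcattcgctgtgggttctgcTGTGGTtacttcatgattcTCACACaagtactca
Nkg7 (chr7:43436888-43437137, plus strand): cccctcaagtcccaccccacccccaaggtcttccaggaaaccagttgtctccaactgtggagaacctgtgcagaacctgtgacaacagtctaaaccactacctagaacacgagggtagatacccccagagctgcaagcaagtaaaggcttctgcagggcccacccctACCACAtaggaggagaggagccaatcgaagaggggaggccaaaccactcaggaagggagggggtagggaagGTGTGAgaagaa
The RUNX core searched was TGTGGT and its reverse complement ACCACA, and the T-box core was GTGTGA and its reverse complement TCACAC. The motifs do not overlap each other in these stretches. Gzma held 1 RUNX core, at positions -50 to -45 from the start, Gzmb held 2 and Nkg7 held 1. Gzmb also held a T-box core at -15 to -10 and Nkg7 one at -12 to -7. Of the 7 genes in the table, 4 held a RUNX core (Prf1 the fourth), beside 14.0% of 32851 promoters of the same length. A T-box core was found in 2 of the 7, beside 12.3% of all promoters. The exact TATA box letters TATAAA, on either strand, were found in 0 of the 7 and in 12.4% of all promoters. Other forms were not searched, and the Gzma stretch holds the similar letters tatataa, so a TATA box is not excluded. Cd3e, Cd3g and Cd8a held neither core. In group-centred log2 CPM, Cd8a followed Nkg7 at r = 0.96 and Cd3g followed Gzma at 0.92, beside 0.94 for Gzma with Gzmb. These matches are descriptions of the sequence, and binding was not measured. Whether the cores bear on the levels was not tested.

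Klrd1 (ENSMUSG00000030165) encodes CD94, which pairs with NKG2 chains to form receptors for a nonclassical MHC class I molecule on natural killer cells and some CD8 T cells. It stood at 2.3, 2.49, 5.05 and 2.25 CPM in the 3-month controls and at 0.996, 2.01, 0.88 and 1.1 CPM under the mutant label. Control replicate 3 lay above the other controls, and the groups did not overlap (log2 fold change -1.27, SE 0.35, edgeR adjusted p = 0.0541). Itgae (ENSMUSG00000005947) encodes the alpha E chain of CD103, which with the beta 7 chain from Itgb7 tethers lymphocytes to epithelial E-cadherin. It stood at 43.8, 53.7, 61.1 and 49.2 CPM in the controls and at 20, 43.7, 21.2 and 27.5 CPM under the mutant label. Mutant replicate 2 lay just under the lowest control, and Itgae fell with a log2 fold change of -0.89 (SE 0.24, edgeR adjusted p = 0.0484).

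Per kilobase of exon, the order of levels in the 3-month controls was Gzma, Gzmb, Itgae, Nkg7, Cd8a, Cd3g, Cd4, Klrd1, Cd3e and Prf1. Itgae (11.3 ± 1.6 CPM per kilobase; SD, n = 4) and its neighbour Nkg7 (10.4 ± 0.661) did not differ beyond their spread. Nor did Cd3e (0.887 ± 0.085) and Prf1 (0.831 ± 0.118). Cd8a stood at 7.77 ± 0.963, Cd3g at 6.02 ± 0.448, Cd4 at 3.92 ± 0.415 and Klrd1 at 2.36 ± 1.06.

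At 8 days the same question gave no called member. Of 17493 genes, edgeR called 16 (0.0915%), and 0 of the 10 were among them. DESeq2, which called 1.02% of all genes, and limma-voom, which called 0.0915%, also called 0 of the 10. At an unadjusted p under 0.05, 1 of the 10 passed (Cd4), beside 8.80% of all genes. The log2 fold changes of the 10 had a median of -0.10 beside 0.00 for all genes and ran from -0.58 (Gzmb, SE 0.36) to 0.47 (Cd4, SE 0.16). Cd4 stood at 10.6, 11.8 and 10.5 CPM in the controls and at 13.1, 12.1, 17.2 and 18.5 CPM in the libraries labelled mutant. All 4 lay above the controls, which was so for 3.84% of all genes, but the edgeR adjusted p was 0.47.

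Among the cytotoxic genes at 8 days, Gzma stood at 30.2, 41.2 and 16.8 CPM in the controls and at 26.7, 9.01, 33.2 and 20.4 CPM under the mutant label (log2 fold change -0.39, SE 0.42, edgeR adjusted p = 0.889). Gzmb stood at 13.9, 15.8 and 10.5 CPM against 12.1, 3.87, 12.6 and 7.31 CPM (-0.58, edgeR adjusted p = 0.735). The ranges overlapped for both, and mutant replicate 2 was the lowest library for each. Nkg7 was at 4.35, 4.52 and 2.85 CPM in the controls and at 3.94, 2.5, 4.09 and 3.54 CPM in the libraries labelled mutant. Prf1 ran from 0.901 to 1.06 CPM and from 0.801 to 1.46 CPM, and Klrd1 from 1.12 to 2.79 and from 1.02 to 2.07 CPM. Neither gene separated the groups.

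For the receptor chains at 8 days, Cd3e stood at 4.92, 4.01 and 2.39 CPM in the controls and at 3.24, 2.25, 7.16 and 4.94 CPM under the mutant label. Cd3g stood at 5.95, 7.59 and 4.25 CPM against 5.35, 4.53, 8.94 and 7.74 CPM. Cd8a stood at 13.9, 11.9 and 6.55 CPM against 10.3, 6.41, 13.7 and 10.2 CPM, and its log2 fold change was -0.08 (SE 0.30, edgeR adjusted p = 0.982). Itgae ran from 16.9 to 26.8 CPM in the controls and from 15.3 to 28.3 CPM in the libraries labelled mutant. In each of these 4 genes the ranges overlapped, and control replicate 3 was the lowest control.

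The summed CPM of the 10 genes was 72.8 to 127 in the 8-day controls, 57.8 to 129 in the 8-day libraries labelled mutant, 246 to 336 in the 3-month controls and 63.3 to 197 in the 3-month libraries labelled mutant. The 3-month controls thus stood apart from the other 3 groups, with the 3-month libraries labelled mutant closer to the level of the 8-day cohort. The sum weighs most the genes with the highest CPM. In the 3-month controls Gzma (mean 119 CPM), Itgae (52) and Gzmb (41.3) made up most of a mean sum of 294 CPM. CPM was scaled within each cohort, no test was made between cohorts, and time after tamoxifen and cohort cannot be told apart.

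**Figure D2:**
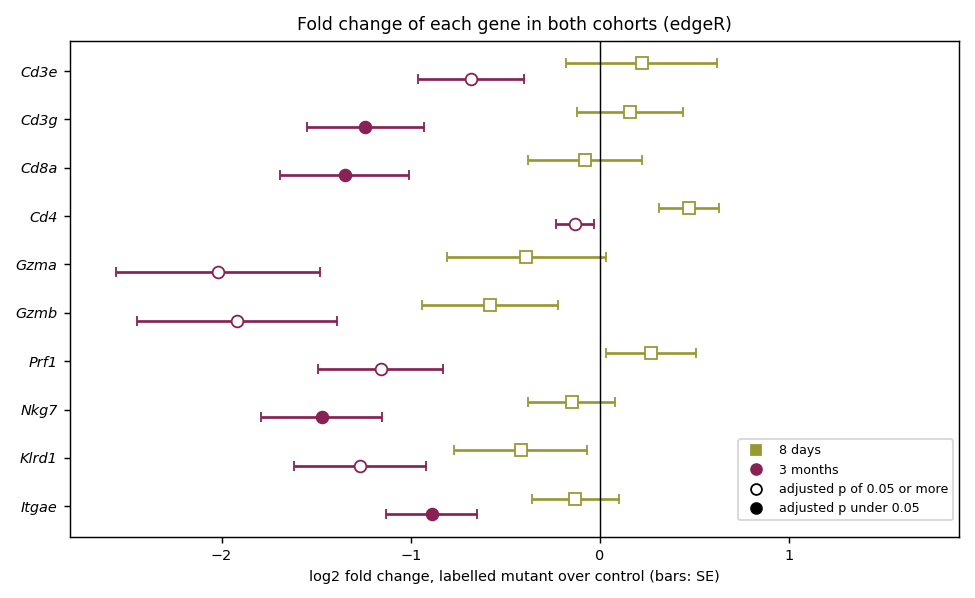
Log2 fold change of each of the 10 genes, libraries labelled mutant over control (horizontal axis), at 8 days (squares) and at 3 months (circles), with bars of 1 SE; filled symbols passed an adjusted p of 0.05 in edgeR. The 3-month values run from -2.02 (Gzma) to -0.13 (Cd4) and the 8-day values from -0.58 to 0.47, with filled circles for Cd3g, Cd8a, Nkg7 and Itgae.

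Whether the effect of the mutant label differed between the cohorts was tested as an interaction over all 15 libraries. None of the 10 genes passed, beside 141 of 17959 genes (0.785%) called by edgeR. At an unadjusted p under 0.05, 7 of the 10 passed, beside 9.04% of all genes that passed in the negative direction, and DESeq2 called 4 of the 10 beside 3.29% of all genes. All 10 differences (3 months minus 8 days) were negative, as were 51.9% of all, with a median of -1.32 beside -0.01 for all genes. The smallest adjusted p-values were those of Prf1 (difference -1.45, SE 0.44, edgeR adjusted p = 0.103) and Cd4 (-0.62, SE 0.19, adjusted p = 0.105). Nkg7 differed by -1.35 (SE 0.43) and Cd3g by -1.43 (SE 0.46), each with an adjusted p of 0.121. The members called at 3 months are therefore not shown to have responded differently at 8 days. Without mutant replicate 2 of the 3-month cohort, 5 of the 10 passed, beside 1.15% of all genes in that direction.

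Each gene was also set against Cd3e, a transcript made by all T cells, in the same library. This was done as a log2 ratio of CPM. Cd3e had a smaller fold change at 3 months (-0.68 in log2) than Cd3g (-1.24), Cd3d (-1.06) and Cd247 (-1.09) of the same receptor complex. A lower ratio to Cd3e alone therefore does not show a fall beyond that of T cell RNA. At 3 months the ratio of Gzma to Cd3e was 5.02 ± 0.32 (SD, n = 4) in the controls and 3.40 ± 0.85 (SD, n = 4) in the libraries labelled mutant. That of Gzmb was 3.50 ± 0.26 against 1.96 ± 0.78, and that of Nkg7 was 1.40 ± 0.13 against 0.56 ± 0.34. Cd8a went from 2.96 ± 0.11 to 2.22 ± 0.31 and Cd3g from 2.44 ± 0.16 to 1.84 ± 0.38. For these 5 genes the groups did not overlap. The share of all genes whose ratio to Cd3e would do so was not computed, so this count has no background. For each of the 5 the two-sided exact permutation p was 0.0286, the smallest that 4 against 4 libraries can give. Adjusted over the 18 ratios of both cohorts it was 0.103. With this few libraries no ratio among the 18 could reach an adjusted p under 0.05, so the adjusted values say nothing for or against a difference. The smallest difference was that of Itgae, at 3.84 ± 0.07 against 3.66 ± 0.48 (exact permutation p = 0.6, adjusted 0.675), and the ratio of Cd4 was higher under the mutant label, at 2.13 ± 0.19 against 2.77 ± 0.64 (exact permutation p = 0.0857, adjusted 0.22).

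Prf1 and Klrd1 had lower mean ratios to Cd3e under the mutant label, by -0.52 and -0.49 in log2, with overlapping groups. With Cd3g as the denominator, the Gzma ratio differed by -1.01, that of Nkg7 by -0.23 and that of Cd4 by 1.25, each at an exact permutation p of 0.0286 (adjusted 0.129, under the same limit). The ratio of Cd8a to Cd3g differed by -0.13 (exact permutation p = 0.257, adjusted 0.421) and that of Gzmb by -0.93 (exact permutation p = 0.0857, adjusted 0.22). With this denominator 3 differences changed sign, to 0.09 for Prf1 (exact permutation p = 0.6, adjusted 0.72), 0.12 for Klrd1 (exact permutation p = 0.714, adjusted 0.756) and 0.43 for Itgae (exact permutation p = 0.0571, adjusted 0.171). The smallest exact permutation p that the 8-day cohort can give is 0.0571. It was reached by the ratio of Klrd1 to Cd3g, which differed by -0.53 without overlap (adjusted 0.171). The widest of the 8-day differences was that of Gzmb, at -0.85 with either denominator. Its ratio to Cd3e was 1.87 ± 0.34 (SD, n = 3) in the controls and 1.02 ± 0.60 (SD, n = 4) in the libraries labelled mutant. Between the control groups of the cohorts, which were not tested against each other, the ratio of Cd3g to Cd3e was 0.67 ± 0.35 at 8 days and 2.44 ± 0.16 at 3 months. Mean Cd3e stood at 3.78 and 3.62 CPM in these groups, and mean Cd3g at 5.93 and 19.7 CPM.

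**Figure D3:**
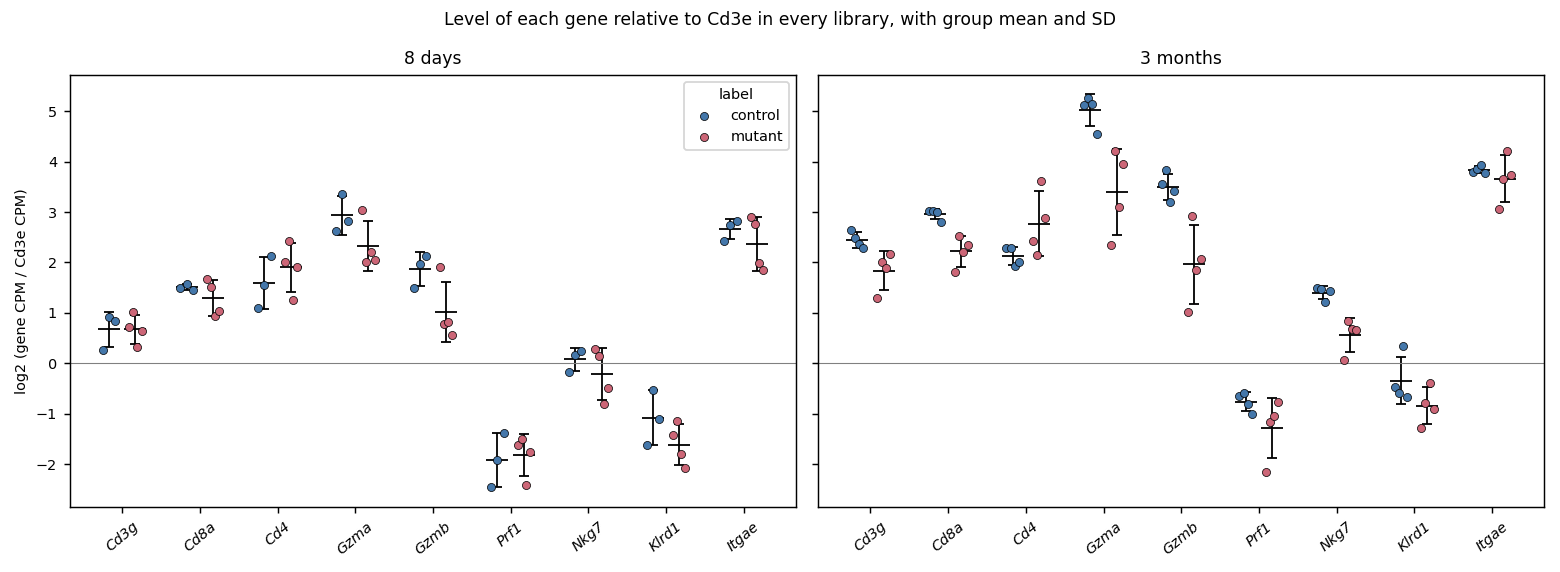
Log2 ratio of the CPM of each of 9 genes to that of Cd3e (vertical axis) in every library, at 8 days (left) and 3 months (right); points are libraries, bars are group means and whiskers 1 SD. At 3 months the ratios of Cd3g, Cd8a, Gzma, Gzmb and Nkg7 do not overlap between labels, and those of Itgae and Cd4 do.

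After each group mean was subtracted, log2 CPM over the 15 libraries correlated with Cd3e at a Pearson r of 0.89 for Cd8a (permutation p = 7.6e-04, adjusted 0.0144; Spearman rho 0.78, permutation p = 0.00616, adjusted 0.0585) and 0.85 for Cd3g (permutation p = 0.00439, adjusted 0.0417; rho 0.75, adjusted 0.1). Of 19 pairs tested, those of Cd3e with Cd3g, Cd8a, Gzma, Nkg7 and Klrd1 passed by Pearson's r and 0 passed by Spearman's rho. The other 10 pairs set the B cell gene Ms4a1 against each of the 10, with r from -0.32 (Itgae) to 0.36 (Cd4), and 0 of them passed by either measure. Without the 2 libraries farthest from the median of Ms4a1 these r ran from -0.49 to 0.21. Cd4 followed Cd3e least, at r = 0.58 (permutation p = 0.0927, adjusted 0.196; rho 0.48, permutation p = 0.161, adjusted 0.34). Without the 2 libraries farthest from the median of Cd3e, r was 0.82 for Cd8a, 0.75 for Cd3g and 0.49 for both Cd4 and Gzmb. Prf1, at 0.41, was then the lowest, so the place of Cd4 did not hold. Within the cohorts alone no pair passed. The Cd3g value was 0.91 (n = 7) at 8 days and 0.84 (n = 8) at 3 months, and in the 3-month cohort it was -0.38 without the 2 farthest libraries, so that there it rested on those libraries.

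The pair with the closest relation was Cd8a with Nkg7 (r = 0.96, n = 15), followed by Gzmb with Nkg7 (0.95) and Gzma with Gzmb (0.94), given as descriptions. All 15 values share the library of each animal and its depth. Among all named genes outside the list, those reported here whose group-centred log2 CPM was most like the mean of Cd3e and Cd3g were H2-Q6 (r = 0.94, n = 15), H2-Q5 (0.93), H2-M3 (0.93) and Itgb7 (0.92). The H2 genes encode MHC class I molecules, some of them with similar sequences whose reads the authors' counting could have split. At 3 months H2-M3 had a log2 fold change of -0.59 (edgeR adjusted p = 0.0187).

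Other genes of the same pathways were read from companion lists. Of 24 further genes of the T cell receptor complex and its signalling, 12 fell at 3 months and 0 rose. All 24 fold changes were negative, with a median of -1.0 beside 0.01 for all genes. Lat, the adaptor that gathers signalling proteins at the activated receptor, went from 9.78 ± 1.36 to 4.17 ± 1.44 CPM (SD, n = 4 each), which is a difference of -1.23 in log2 (SE 0.24, edgeR adjusted p = 0.0222). Ctla4, an inhibitory receptor of activated and regulatory T cells, went from 4.54 ± 1.07 to 2.18 ± 0.451 CPM (-1.06, SE 0.21, adjusted p = 0.0234). Cd3d, the CD3 delta chain gene that lies between Cd3g and Cd3e, fell by 1.06 in log2 (adjusted p = 0.0238), and Cd8b1, the CD8 beta chain gene beside Cd8a, fell by 1.32 (adjusted p = 0.0342). At 8 days 0 of the 24 were called by edgeR (6 at an unadjusted p under 0.05, 1 by DESeq2), and 23 had a positive fold change with a median of 0.53. The gene called by DESeq2 was Cd2, which edgeR also called without mutant replicate 1 (1 of the 24). Of 7 pan-leukocyte genes in the same 8-day libraries, all 7 had a positive fold change with a median of 1.01, and 0 were called (7 at an unadjusted p under 0.05, 0 by DESeq2, 2 without mutant replicate 1). For the difference between cohorts 2 of the 24 passed, Lat and Ctla4. Without single libraries of the 3-month cohort the count of 12 moved to between 0 (without control replicate 2 or 3) and 16 (without mutant replicate 2), and it was 21 with DESeq2 and 0 with the Rfx6f/f controls only.

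The constant segments of the receptor chains themselves, a list added after values were seen, gave 3 calls among 7 genes. Trac, the alpha chain constant gene, stood at 4, 5.96, 6.33 and 5.32 CPM in the 3-month controls and at 1.35, 3.07, 1.36 and 2.67 CPM under the mutant label, without overlap (log2 fold change -1.36, SE 0.29, edgeR adjusted p = 0.0277). Trbc1 and Trbc2, of the beta chain, fell by 1.12 and 1.28 in log2. The count of 3 became 0 without control replicate 1, 2 or 3 or mutant replicate 1, 2 without mutant replicate 3, 6 without mutant replicate 2, 5 with DESeq2, and 0 with the Rfx6f/f controls only. Tcrg-C3, 1 of the 7, passed the filter through the controls alone. Of the gamma chain genes, which mark the gamma delta T cells common in the intestinal epithelium, Tcrg-C2 had a log2 fold change of -1.33 (adjusted p = 0.0502) and Tcrg-C1 one of -0.79 (adjusted p = 0.262).

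Of 28 further cytotoxic and natural killer genes, 24 passed the filter at 3 months. Among those 24, 6 fell, 0 rose and 19 fold changes were negative, with a median of -0.68. Ifng, the gene of the cytokine interferon gamma, fell from 1.09 ± 0.36 to 0.119 ± 0.103 CPM (SD, n = 4 each), or from 18 to 49 counts per library down to 0 to 7 per library (log2 fold change -3.24, SE 0.57, edgeR adjusted p = 0.0159). Ifng passed the filter through the controls alone, the 1 of the 24 to do so, with 0 of 4 libraries labelled mutant above the filter's minimum, and it was not tested where 10 counts were asked of every sample. Without a filter its adjusted p was 0.0109. Srgn, the core protein of granule proteoglycan, fell by 0.81 in log2 (adjusted p = 0.0159). Cst7, which encodes cystatin F, an inhibitor of granule cathepsins, fell by 1.77 (adjusted p = 0.0261). Ccl5, a chemokine stored by cytotoxic T cells, went from 19.3 ± 5.38 to 5.12 ± 3.34 CPM (-1.92, SE 0.42, adjusted p = 0.0294). Ccl4 and Serpinb6b were the other 2 called. The count of 6 became 2 without control replicate 2 or 3 or mutant replicate 1, 3 without control replicate 1 or mutant replicate 4, 13 without mutant replicate 2, 13 with DESeq2, 11 with limma-voom, 12 in the joint fit, and 0 with the Rfx6f/f controls only. Not all killer-cell genes were lower, and 5 of the 24 had a positive fold change, none of them called. Of these, Klrb1c differed by 0.64 (edgeR adjusted p = 0.21), Klrg1 by 0.62 (adjusted p = 0.27) and Tyrobp by 0.03 (adjusted p = 0.865). Klrk1, the NKG2D gene next to Klrd1, differed by 0.01 in log2 (SE 0.19, adjusted p = 0.97) and Gzmm by 0.17 (adjusted p = 0.635). At 8 days 0 of the 25 genes tested were called, and their median was 0.09.

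Lineage and homing genes were read from 2 further lists. Of 11 transcription factors of T cell lineages, 10 were tested at 3 months and 2 fell, Tbx21 (log2 fold change -0.91, SE 0.20, edgeR adjusted p = 0.0301) and Prdm1 (-0.61, SE 0.15, adjusted p = 0.0369), while Runx3 stood at -0.24 (adjusted p = 0.45). Of 11 genes of homing and of naive or central T cells, 2 fell, Cxcr6, a chemokine receptor of tissue-resident T cells (-1.01, SE 0.21, adjusted p = 0.0236), and Itgb7, the partner chain of Itgae (-0.89, SE 0.20, adjusted p = 0.0301). Both counts of 2 became 0 without control replicate 1, 2 or 3, without mutant replicate 3, and with the Rfx6f/f controls only. The transcription factor count also became 0 without mutant replicate 4 and 1 without control replicate 4 or mutant replicate 1. The homing count became 1 without mutant replicate 1, 3 without mutant replicate 2 or 4, and 4 with DESeq2. At 8 days 10 of the 11 homing genes had a positive fold change, with a median of 0.60. None was called by edgeR or DESeq2 there, and 5 passed at an unadjusted p under 0.05. For the difference between cohorts 0 were called by edgeR, 6 by DESeq2 and 9 at an unadjusted p under 0.05. Of 9 epithelial genes that interact with intraepithelial lymphocytes, 0 were called by edgeR at 3 months (3 at an unadjusted p under 0.05, and 2 by DESeq2). Il15, whose cytokine maintains these lymphocytes, differed by 0.69 in log2 (SE 0.20, adjusted p = 0.0618), and Cdh1, the E-cadherin gene, by -0.01 (adjusted p = 0.971).

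Genes of other immune cells in the same libraries were measured beside the 10. In the 3-month cohort 4 of 7 pan-leukocyte genes and 3 of 5 plasma cell genes fell, whereas 2 of 10 macrophage and dendritic cell genes rose (Csf1r and Mpeg1) and 1 fell (Itgam). With the Rfx6f/f controls only, 0 of these were called. The pan-leukocyte count of 4 became 1 or 2 without any single library of that cohort other than mutant replicate 4, without which it was 7, as it was with DESeq2. The plasma cell count of 3 became 4 without mutant replicate 2 and 2 without any 1 of the other 7 libraries. The macrophage and dendritic cell count of 3 became 0 without control replicate 1, 2 or 3, and was 2 or 3 without any 1 of the other 5. Of 6 epithelial genes 0 were called by edgeR (4 at an unadjusted p under 0.05, 2 by DESeq2), and all 6 fold changes were negative with a median of -0.26. Of 6 smooth muscle genes 0 were called (2 at an unadjusted p under 0.05, 0 by DESeq2), with a median of 0.37. Of 11 genes of B cells and lymphoid follicles 0 were called (2 at an unadjusted p under 0.05, 0 by DESeq2, and 3 without mutant replicate 4), and their sum was 131 to 296 CPM in the controls and 24.9 to 195 CPM under the mutant label. None of the 11 was at 0 in any library.

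The B cell sum moved differently from the 10 genes among individual libraries. Relative to the mean of the cohort's controls, the B cell sum of the 3-month libraries labelled mutant was -1.02, -2.98, -3.0 and -0.03 in log2, and that of the 10 genes was -2.06, -0.58, -2.22 and -1.42. Replicate 2, the highest of the 4 for the 10 genes, was thus nearly the lowest for B cell genes, and replicate 4, at the control level for B cell genes, was low for the 10. At 8 days the B cell sum was -0.62, 1.88, 2.97 and 3.09 in the libraries labelled mutant, beside -0.05, -0.85, 0.31 and -0.16 for the 10. All 11 B cell and follicle genes had a positive fold change at 8 days, with a median of 2.5, and 0 were called by edgeR (11 at an unadjusted p under 0.05, 0 by DESeq2, 9 without mutant replicate 1). Ms4a1, which encodes the B cell antigen CD20, ran from 1.16 to 7.45 CPM in the 8-day controls and stood at 1.89, 21.3, 39.8 and 46.3 CPM under the mutant label. Ccr7, a homing receptor of naive T cells and B cells, stood at 1.08, 3.75, 6.44 and 9.13 CPM in those 4 libraries, in the same order as Ms4a1. No comparison with the controls is drawn from these Ccr7 values. The part of lymphoid follicles in the sampled tissue in any of the differences above was not tested.

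**Figure D4:**
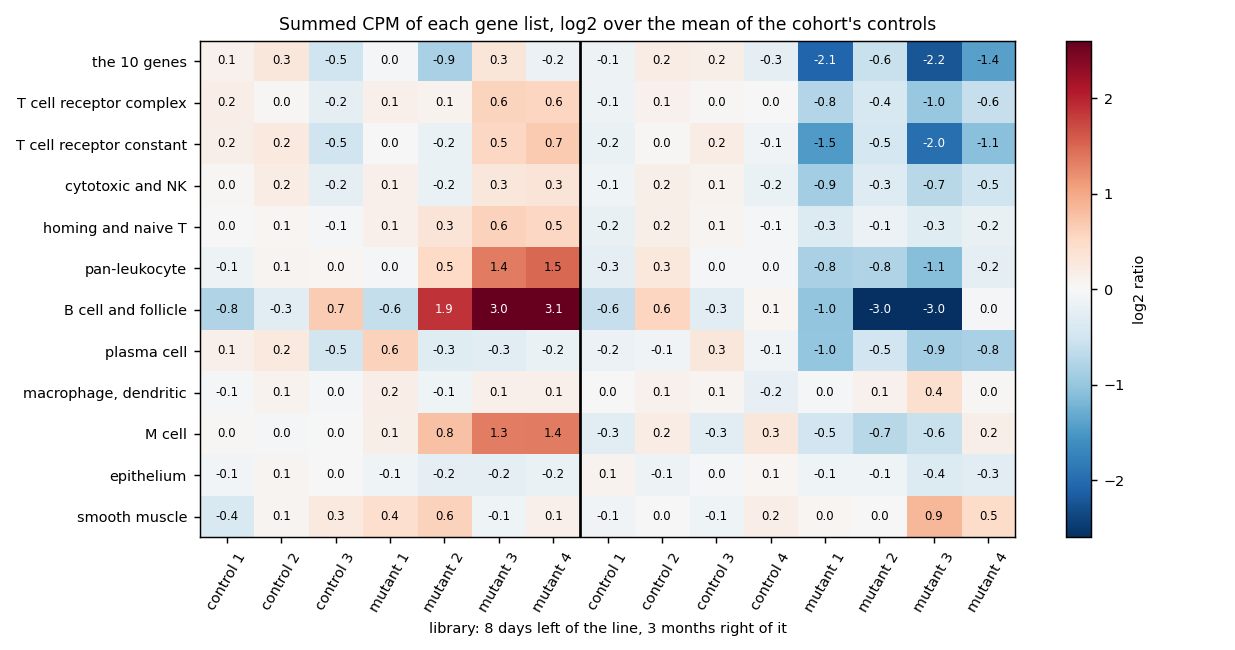
Summed CPM of the 10 genes and of 11 other gene lists (rows) in each of the 15 libraries (columns, 8 days left of the line), as log2 over the mean of the same cohort's controls; red is higher and blue lower, and the value is printed in each cell. The 10 genes are at -2.06, -0.58, -2.22 and -1.42 in the 3-month libraries labelled mutant, in which the B cell list is at -1.02, -2.98, -3.0 and -0.03.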

How the data were processed

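The values are the whole-number counts that the authors deposited for each Ensembl gene. The 2 cohorts came as separate tables with a column for every animal. Per the submitters' processing notes, the build was mm9 and the tools were bcl2fastq 2.17.1.14, Bowtie 1.0.0, Bowtie2 2.1.0, TopHat2 2.0.10 and HTSeq 0.6.1. Their roles, the annotation release and the strand setting are not given in the sources used here. Per the labels' protocols, RNA was extracted with TRI-reagent or an RNeasy kit, with no record of which sample had which, so extraction could not be modelled, and the labels do not say whether animals shared a litter. Each library was taken as 1 animal, which the labels do not spell out, so p-values measure the spread between these libraries, which may be technical in part.

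Symbols and exon lengths came from GENCODE M21 on GRCm38, which named 32897 of 37620 identifiers (87.45%). Those without a symbol held 0.675% of the counts. As the build differs, no coordinates are printed from it, and it was used for names, exon lengths, shared exon bases and which genes are neighbours. In R 4.3.3, genes were kept by filterByExpr (minimum count 10) and scaled by TMM, and each cohort was fitted on its own in edgeR 4.0.16 (quasi-likelihood, legacy), with Benjamini-Hochberg adjustment over all genes tested and a threshold of 0.05. The difference between cohorts was the interaction contrast over 15 libraries. CPM used the TMM-scaled library size within a cohort. Group-centred log2 CPM used a prior count of 2, and its correlations 100000 permutations within groups. Alternatives were DESeq2 1.42.0, limma-voom (limma 3.58.1), RLE and upper quartile scaling, library totals alone, no filter, 10 counts in every sample, a joint fit, Rfx6f/f controls only, a minimum absolute log2 fold change of 1, and each library left out. The tests were checked first on simulated counts.

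The 10 genes and the companion lists were chosen with earlier results of these data known. Named genes were the 10, Rfx6, up to 4 genes with the smallest p per list and comparison, and the 5 genes most like the mean of Cd3e and Cd3g. The result of 1 of these 5 is not reported here. Gzmc, Gzmm, Klrk1, Klrb1c, Klrg1, Cd247, Ccl4, Serpinb6b, Cdh1, Ms4a1 and Tcrg-C1 are further genes, picked once values were known, as was the list of receptor constant genes. Figures were drawn with matplotlib 3.10.9.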

Additional observations from a re-analysis of the deposited data

Results flagged for a closer look

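Of 57 checks of single libraries within groups of 4, 4 stood apart from the rest of their group, and chance gives about 1 in 20, or 2.85. In the 3-month controls, replicate 2 had 52.7 CPM of Gzmb, while the other 3 had 36.9 to 38.5 CPM. Replicate 3 had 5.05 CPM of Klrd1, while the others had 2.25 to 2.49 CPM. Both animals were Rfx6f/+, so that leaving them out is part of the comparison with Rfx6f/f controls only. The log2 ratio of Cd8a to Cd3e was 2.80 in control replicate 4 and 3.00 to 3.03 in the other 3, and that of Nkg7 to Cd3e was 1.21 in control replicate 3 and 1.44 to 1.49 in the others.

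None of the 10 genes passed the test of the difference between cohorts, but 7 genes of the lists set beside them did, each with a more negative effect at 3 months than at 8 days (edgeR interaction, 3 months minus 8 days). The differences were -1.61 for Ctla4 (SE 0.34, adjusted p = 0.0487), -1.83 for Lat (SE 0.39, adjusted p = 0.0495), -2.57 for Cst7 (SE 0.54, adjusted p = 0.0487) and -2.10 for the receptor constant gene Trac (SE 0.43, adjusted p = 0.0487). Among pan-leukocyte genes they were -1.95 for Cd53 (SE 0.42, adjusted p = 0.0487) and -1.35 for Cd48 (SE 0.24, adjusted p = 0.0265), and for the plasma cell gene Mzb1 the difference was -1.89 (SE 0.30, adjusted p = 0.0204). Mzb1 passed in 19 of 23 alternatives, Cd48 in 12, Ctla4 in 10, Trac in 9, and Lat, Cst7 and Cd53 in 8 each, and none of the 7 passed with Rfx6f/f controls only. With 1 of the 15 libraries left out, Mzb1 passed 12 times, Cd48 and Ctla4 5 times each, Trac 4 times, and the other 3 genes 3 times each. For the receptor and signalling list the count of 2 became 18 with DESeq2 and 0 with limma-voom, library totals alone or Rfx6f/f controls only. With 1 library left out it ran from 0 to 16, and was 7 without 3-month mutant replicate 4, 11 without 3-month mutant replicate 2 and 16 without 8-day mutant replicate 1.

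For the B cell and follicle genes all 11 differences between cohorts were negative, with a median of -3.75, and 11 were at an unadjusted p under 0.05, while 0 were called by edgeR, 7 by DESeq2, 3 without 3-month mutant replicate 4 and 9 without 8-day mutant replicate 1. Their part in the differences above was not tested.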

How the results depend on the processing

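At 3 months all 10 fold changes kept their negative sign under the 17 alternatives. The count of called genes among the 10 was 4, and it became 8 with DESeq2, 7 with limma-voom, 8 with the joint fit and 0 with Rfx6f/f controls only. With 1 library left out it ran from 0 to 8. The minimum absolute log2 fold change of 1, which is not among the 17, dropped Itgae (-0.89) and kept Cd3g, Cd8a and Nkg7. Over all genes the 3-month count of 1586 became 2989 with DESeq2 and 36 with Rfx6f/f controls only, and 391 to 1521 with 1 library left out. For the difference between cohorts the count of 0 among the 10 became 4 with DESeq2 and ran from 0 to 5 with 1 library left out. Over all genes that count of 141 became 1013 with DESeq2, 41 with limma-voom, 72 with library totals alone, 223 without a filter, 248 with 10 counts in every sample and 5 with Rfx6f/f controls only, and ran from 10 to 749 with 1 library left out. The 8-day count over all genes was 16, and became 178 with DESeq2, 27 without a filter, 25 in the joint fit and 8 to 200 with 1 library left out, while 0 of the 10 were called in any of these. The 5 genes that correlated with Cd3e over 15 libraries became 0 in the 8-day cohort alone and 0 in the 3-month cohort alone.

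At 8 days, where none of the 10 was called, leaving out 1 library changed the sign of a fold change 8 times. Cd3e ran from -0.12 (without mutant replicate 3; -0.03 without control replicate 3) to 0.46, and Cd3g from -0.03 and -0.02 without the same libraries to 0.38. Cd8a ran from -0.35 to 0.14 (without control replicate 1; 0.09 without mutant replicate 2). Klrd1 ran from -0.69 to 0.01 (without control replicate 2), and Itgae from -0.32 to 0.01 (without mutant replicate 2). The cause was not tested for any of these moves, except that leaving out libraries or controls leaves fewer samples.

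No paired analysis was possible because the replicate numbers were given in accession order and pair no animal with another. Prf1 and Klrd1, at 17 to 130 counts per library, were among the lowest of the 10 genes in counts and so had a large relative counting error. At 3 months their counts overlapped those of Cd3e, which had 91 to 121 in the controls and 43 to 105 under the mutant label.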

Other observations

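Among the genes used to look for innate lymphoid cells, Il17a, the gene of a cytokine made by helper T cells, gamma delta T cells and innate lymphoid cells, was the 1 of 5 tested that was called at 3 months. It fell from 1.42 ± 0.654 to 0.0988 ± 0.177 CPM (SD, n = 4 each), or from 15 to 61 counts per library down to 0 to 11 (log2 fold change -3.84, SE 0.84, edgeR adjusted p = 0.0286). It passed the filter through the 4 controls and 1 library labelled mutant, and without a filter its adjusted p was 0.0243. The call held in 9 of 16 alternatives. It was lost without control replicate 1, 2 or 3 or mutant replicate 1, 3 or 4, and the log2 fold change ran from -6.62 without mutant replicate 2 to -3.22 (adjusted p = 0.22) with the Rfx6f/f controls only. In the 8-day cohort it had 0 to 8 counts per library and was not tested. Of the 5 innate lymphoid genes tested at 3 months, 4 had a positive fold change, and the median was 0.34 in log2. At an unadjusted p under 0.05, 3 passed, and without mutant replicate 2 edgeR called 2. The list summed to 52.7 to 62.6 CPM in the 3-month controls and to 58.2 to 106 CPM under the mutant label. With the Rfx6f/f controls only, 0 of these genes were called at 3 months. Of 5 mast cell genes, Tpsab1 was at 0 in every library, and of the 3 tested at 3 months 0 were called by edgeR, 0 by DESeq2 and 0 at an unadjusted p under 0.05.

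Genes of M cells, the epithelial cells that overlie lymphoid follicles, summed to 34.7 to 36.7 CPM in the 8-day controls and to 39.6 to 91.5 CPM in the 8-day libraries labelled mutant. None of these 5 genes was called at 8 days by edgeR, while DESeq2 called 1 and 3 passed at an unadjusted p under 0.05. At 3 months their sums were 54.3 to 80.6 CPM and 40.3 to 73.8 CPM, with overlap.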
